A study of Homo sapiens with 5 samples.

Results

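This account concerns the combined knockdown of the transcription factors SP1 and SP3 in cells of the human colorectal cancer line HCT116. It rests on 3 of the 5 RNA sequencing libraries of the study, chosen by their labels: 1 library from cells given siRNA against both SP1 and SP3, and 2 libraries from cells given control siRNA, called control 1 and control 2. The other 2 libraries came from cells given siRNA against SP1 alone or against SP3 alone and are used where the double knockdown is set beside a single knockdown. A small interfering RNA (siRNA) lowers the transcript whose sequence it matches. All groups were HCT116 cells, and the labels give no other allele or agent. The double knockdown is 1 library with no replicate, the sources used here do not give the siRNA sequences, their amounts or the hours of treatment, and nothing says that the controls were separate cultures.

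SP1 and SP3 are zinc finger proteins that bind the same GC-rich DNA element, the GC box, which is common just upstream of the transcription start sites of housekeeping and growth genes. SP1 is known mainly as an activator, and SP3 acts as an activator or a repressor depending on the promoter and on its isoform and SUMO modification. Because both proteins compete for the same sites, lowering them together asks a different question from lowering either alone.

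The 3 libraries held 14678068 counted reads in the double knockdown, and 15681880 and 15899164 in the controls, as recovered from the steps of the deposited FPKM values (fragments per kilobase of transcript, scaled to library depth). Each gene's difference is the double knockdown minus the control mean on the log2(FPKM + 1) scale, which understates changes of genes with low values. Across 11728 genes tested, the controls differed from each other by a median of -0.03 with an SD of 0.13. The epithelial markers EPCAM, KRT8 and KRT19 were present in all 3 libraries, with EPCAM at 93.7 FPKM in the double knockdown and at 99.7 and 105 FPKM in the controls. CDH1 had 38.6 FPKM in the double knockdown, against 48.6 and 49.1 FPKM in the controls. The markers KRT18 and CLDN4 were also present and lower than in both controls, whereas KRT8, KRT19 and CLDN7 were higher. Of the intestinal markers, CDX1 and VIL1 were at or near 0 in every library, CDX2 had 0.583 FPKM in the double knockdown and 1.15 and 1.13 FPKM in the controls, and HNF4A had 0.941 FPKM in the double knockdown and 0.928 and 0.709 FPKM in the controls. Of 8 fibroblast markers, COL1A1 reached 1 FPKM, and none of 5 endothelial markers did.

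Both targeted transcripts were lower in the double knockdown. SP1 had 16.1 FPKM in the double knockdown, against 36.6 and 37.2 FPKM in the controls. That is 43.6% of the control mean of 36.9 ± 0.40 FPKM (SD, n = 2), with a 95% Poisson interval of 39.7 to 47.8% that covers counting error only. SP3 had 6.67 FPKM in the double knockdown, against 13.3 and 13.0 FPKM in the controls, or 50.7% (46.5 to 55.3%). The double knockdown thus stood well below both controls for both targets. The log2 differences from control were -1.15 ± 0.07 (SE) for SP1 (limma adjusted p = 3.8e-09) and -0.88 ± 0.09 for SP3 (adjusted p = 5.84e-07). SP1 was at 15.8 FPKM with the SP1 siRNA alone, and the double knockdown minus that library was 0.02 (95% interval -0.16 to 0.20, adjusted p = 0.845). SP3 was at 5.42 FPKM with the SP3 siRNA alone, and the corresponding difference was 0.25 (0.03 to 0.47, adjusted p = 0.0708).

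Most expressed genes differed from control, most of them by little. In the double knockdown 3736 of 11728 genes passed the limma threshold of an adjusted p of 0.05 as higher (31.9% of genes tested) and 3651 as lower (31.1%), 63% in all. The counts of rises and falls in each list below are to be read beside these shares. Of the 7387 genes called, 4258 differed by less than 1.5-fold, and all 7387 stood on the same side of each control. The latter adds no support, because a call in this fit already required a value outside both controls. The knockdown side of this test has no replicate, so the knockdown library was assumed to vary as the controls do. A second fit estimated the double knockdown as the sum of the SP1 and SP3 siRNA effects and counted any departure from that sum as spread. That additive fit called 1973 of the same 11728 genes, 935 higher and 1038 lower. List counts in it are to be read beside these counts over all genes. In proportion, falls in the mitosis, DNA replication, deoxynucleotide, cholesterol and glycolysis lists were no more frequent in that fit than over all genes. The same held for rises in the proteasome list. Genes that lose their call in the additive fit are named as such in what follows. SP1 and SP3 passed in it (limma adjusted p = 0.0277 and 0.0287). A count that needs no test was taken over 7110 genes whose mean was 5 FPKM or more. In it 294 genes (4.14%) were at least 2-fold higher than each control and 415 (5.84%) at least 2-fold lower, 9.97% in all. No gene of that level differed 2-fold between the controls. At 4-fold the counts were 16 higher and 44 lower, so the steepest changes were mostly falls, as the plot of difference against level shows.

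**Figure D1:**
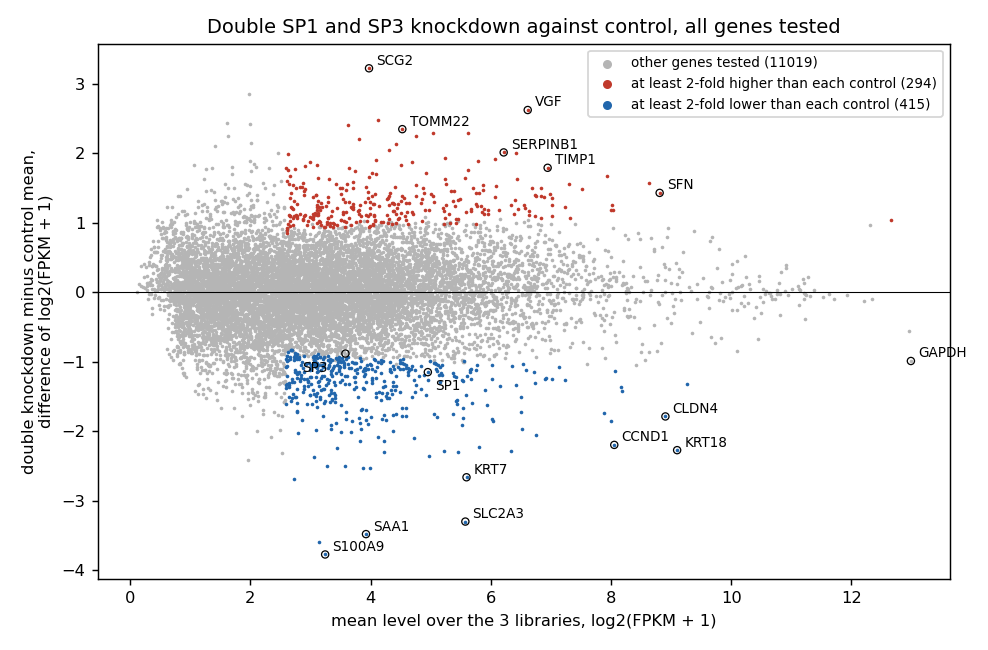
Each point is a gene tested, with its mean level over the double knockdown and control libraries on the horizontal axis and the double knockdown minus the control mean on the vertical axis, both as log2(FPKM + 1). Red points are the 294 genes at least 2-fold higher than each control and blue points the 415 at least 2-fold lower, among genes averaging 5 FPKM or more; circled genes are named in the text.

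The steepest falls reached genes of inflammation, glucose uptake and the epithelial cytoskeleton. SLC2A3, the high-affinity glucose transporter GLUT3, had 5.92 FPKM in the double knockdown, against 70.5 and 63.9 FPKM in the controls (log2 difference -3.30 ± 0.08, limma adjusted p = 3.1e-13). SAA1, an acute-phase protein, had 0.954 FPKM in the double knockdown, against 20.99 and 20.6 FPKM in the controls (-3.48 ± 0.10, adjusted p = 2.48e-12). KRT7, a keratin of simple epithelia, had 9.62 FPKM in the double knockdown, against 63.2 and 69.3 FPKM in the controls (-2.66 ± 0.08, adjusted p = 2.48e-12). In each of these the double knockdown lay far below both controls, which lay close together. HPSE, which encodes the heparan sulfate-degrading enzyme heparanase, had 0.433 FPKM in the double knockdown, against 7.92 and 8.58 FPKM in the controls. CYP2S1, a cytochrome P450, had 2.78 FPKM in the double knockdown, against 21.1 and 20.7 FPKM in the controls. SPR, sepiapterin reductase of tetrahydrobiopterin synthesis, had 2.52 FPKM in the double knockdown, against 20.2 and 18.5 FPKM in the controls. The log2 differences of these 3 were -2.69, -2.53 and -2.53. The remaining falls among the steepest 12 with more than a few reads were SRPX (-2.50), the chemokine CCL20 (-2.50), the mitochondrial aldehyde dehydrogenase ALDH1B1 (-2.37) and the fibril-associated collagen COL12A1 (-2.36), each with all control values above the double knockdown. CCL20 did not pass in the additive fit (adjusted p = 0.0583).

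S100A9 and LYZ were nearly absent in the double knockdown, and so were markers of white blood cells. S100A9, a calcium-binding protein abundant in myeloid cells, had 0 reads in the double knockdown, against 11.5 and 13.9 FPKM in the controls, at least 35.9-fold lower by a floor of 3 reads in that library. LYZ, which encodes lysozyme, had 1 read and 0.0449 FPKM in the double knockdown, against 11.2 and 12.2 FPKM in the controls, a ratio of 259 with an exact 95% counting interval of 46.4 to 10262. S100A8, the partner of S100A9, had 0 reads in the double knockdown, against 4.30 and 4.33 FPKM in the controls (at least 15.3-fold lower). These steep falls rest on genes that the controls themselves held at modest levels. Of 10 leukocyte markers, 6 reached 1 FPKM and were tested, of which 5 fell and 1, CD68, rose (31.1% of all genes tested fell and 31.9% rose). The 5 that fell reached 1 FPKM only in the controls, so they entered the test through their high values and their count is no support for a fall. The 4 that were not tested stayed under 1 FPKM in every library. In bulk RNA, fewer cells of a type and less RNA per cell cannot be told apart. PTPRC (CD45), TYROBP, CD3E, CD79A and AIF1 were at 0 in the double knockdown, against 0.930 and 0.717 FPKM for PTPRC in the controls and 2.05 and 1.49 FPKM for TYROBP in the controls. LAPTM5 had 0.121 FPKM in the double knockdown, against 3.55 and 3.56 FPKM in the controls. The single knockdown libraries lay with the double knockdown and not with the controls: LAPTM5 had 0.377 and 0.140 FPKM there, and LYZ had 0.258 and 0.124 FPKM. A further 9 genes of blood cells were chosen after their values were seen, and all 9 were lower in the double knockdown than in both controls. HBB, a globin of red cells, had 0.109 FPKM in the double knockdown, against 1.73 and 2.11 FPKM in the controls. The platelet gene PPBP had 0 FPKM in the double knockdown, against 0.439 and 1.15 FPKM in the controls, and NKG7, of natural killer and T cells, had 0 FPKM against 1.20 and 1.38 FPKM in the controls. Whether the blood cell transcripts in the controls came from the cultured cells was not tested. The falls of S100A9, S100A8, LYZ and the other genes of such cells therefore cannot be told apart from a difference in blood cell RNA between the control and knockdown libraries, and they may not be effects of the siRNAs. LYZ passed in the additive fit (adjusted p = 0.0428) and TYROBP did not (adjusted p = 0.0594).

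The steepest rises were those of the neuroendocrine granule genes SCG2 and VGF, followed by a mixed group of others. SCG2, a granin of dense-core secretory granules, had 37.8 FPKM in the double knockdown, against 2.88 and 3.47 FPKM in the controls (log2 difference 3.22 ± 0.10, limma adjusted p = 2.48e-12). VGF, a neuropeptide precursor, had 221 FPKM in the double knockdown, against 35.9 and 34.3 FPKM in the controls (2.62 ± 0.06, adjusted p = 3.1e-13). ANKRD52, a regulatory subunit of protein phosphatase 6, had 37.7 FPKM in the double knockdown, against 5.85 and 6.02 FPKM in the controls (2.48 ± 0.08). All 3 stood well above both controls. AMN1 had 25.8 FPKM in the double knockdown, against 3.73 and 4.37 FPKM in the controls. TOMM22, a subunit of the TOM complex that receives proteins at the mitochondrial surface, had 48.7 FPKM in the double knockdown, against 8.88 and 8.67 FPKM in the controls. PRDX4, a peroxidase of the endoplasmic reticulum, had 104 FPKM in the double knockdown, against 21.6 and 19.6 FPKM in the controls. Their log2 differences were 2.41, 2.35 and 2.28, and TOMM22 did not pass in the additive fit (adjusted p = 0.0601). The other rises were SNCG, which encodes gamma-synuclein (2.28), SVBP, the partner of the tubulin carboxypeptidases (2.25), METTL27 (2.203), the calcium-binding protein calretinin, CALB2 (2.14), the immediate early factor FOS (2.04) and the protease inhibitor SERPINB1 (2.01). The plot by library shows that the controls lie to one side of all 3 knockdown libraries for all of these 24 genes but VGF, which the SP1 siRNA library held below the controls. In GENCODE 29, exons of AMN1 share 1241 bases with exons of ETFBKMT on the other strand, and reads of such pairs cannot be told apart without strand. Many other named genes also share exon bases with another gene, some on the same strand, and only some of them are marked here.

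**Figure D2:**
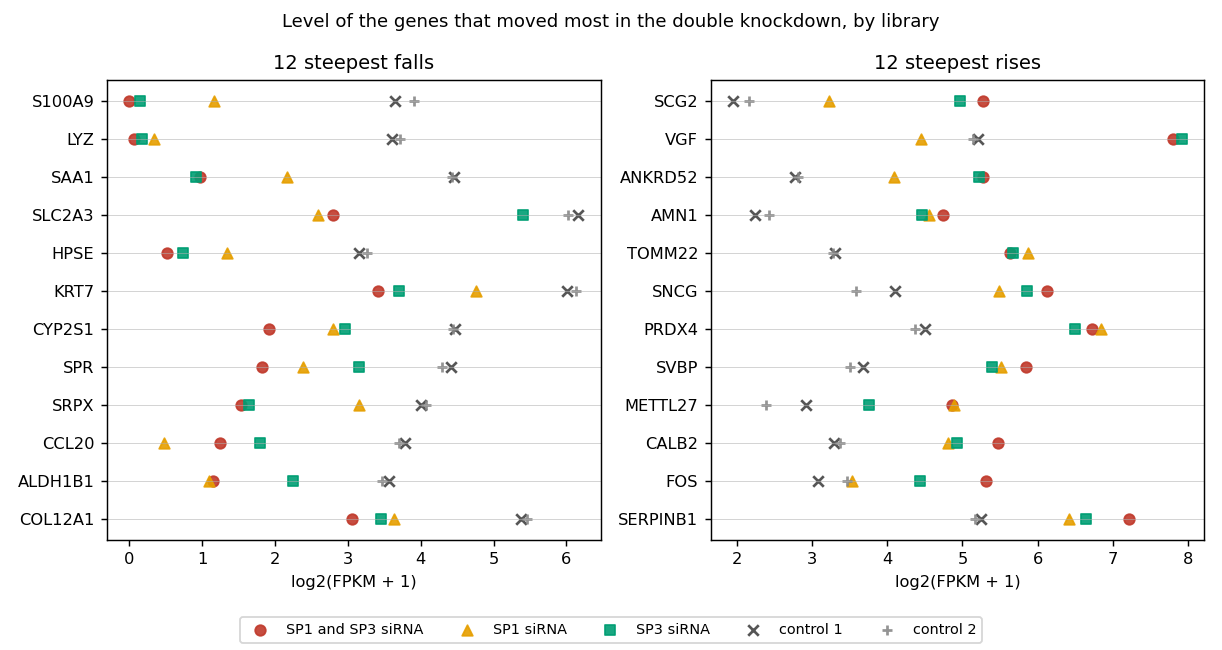
The level of the 12 steepest falls (left) and 12 steepest rises (right) of the double knockdown is drawn for each library as log2(FPKM + 1), with the library given both siRNAs as red circles, the SP1 siRNA as orange triangles, the SP3 siRNA as green squares and the controls as grey crosses. S100A9 is at 0 in the double knockdown; VGF and SCG2 sit near the SP3 siRNA library, and SLC2A3 and ALDH1B1 near the SP1 siRNA library.

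Because SP1 and SP3 bind GC boxes, the stretch before the start site is shown for the first 3 falls and first 3 rises that have an entry in the RefSeq promoter table. Each is the 150 bases before the most upstream annotated start, written 5′ to 3′ on the strand of the gene, from RefSeq on GRCh38.p14, with the GC box GGGCGG or its reverse complement CCGCCC in capitals. S100A9 fell and lies at chr1:153357704-153357853 on the plus strand, HPSE fell and lies at chr4:83335154-83335303 on the minus strand, and CYP2S1 fell and lies at chr19:41193069-41193218 on the plus strand. VGF rose and lies at chr7:101165570-101165719, ANKRD52 rose and lies at chr12:56258385-56258534, and AMN1 rose and lies at chr12:31729175-31729324, all on the minus strand.
S100A9: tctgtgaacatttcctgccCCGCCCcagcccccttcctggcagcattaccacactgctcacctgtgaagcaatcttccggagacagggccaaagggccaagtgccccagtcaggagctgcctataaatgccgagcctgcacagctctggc
HPSE: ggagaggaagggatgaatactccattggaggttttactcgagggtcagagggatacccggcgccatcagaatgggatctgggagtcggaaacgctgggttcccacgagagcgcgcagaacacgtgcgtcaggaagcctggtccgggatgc
CYP2S1: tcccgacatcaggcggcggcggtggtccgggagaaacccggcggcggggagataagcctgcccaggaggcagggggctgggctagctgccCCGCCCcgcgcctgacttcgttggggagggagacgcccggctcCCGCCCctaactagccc
VGF: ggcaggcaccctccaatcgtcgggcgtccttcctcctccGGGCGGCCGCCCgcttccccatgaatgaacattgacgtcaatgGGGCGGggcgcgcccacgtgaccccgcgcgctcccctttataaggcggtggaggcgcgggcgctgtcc
ANKRD52: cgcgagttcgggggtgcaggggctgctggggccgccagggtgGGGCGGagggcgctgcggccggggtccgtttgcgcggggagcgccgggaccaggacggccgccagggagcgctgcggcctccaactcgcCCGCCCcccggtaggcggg
AMN1: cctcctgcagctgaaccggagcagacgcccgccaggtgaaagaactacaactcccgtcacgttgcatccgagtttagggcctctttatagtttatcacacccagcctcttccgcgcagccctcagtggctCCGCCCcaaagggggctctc
Among these, the fall of S100A9 cannot be told apart from a difference in blood cell RNA between the libraries, as given above. The printed stretches hold 1 box in S100A9, 0 in HPSE and 2 in CYP2S1, and 3 in VGF, 2 in ANKRD52 and 1 in AMN1, so the element stood in genes of both kinds, with HPSE as the exception.

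The same held over all promoters with an entry. In the 300 bases from 250 before to 50 after the start, GGGCGG on either strand was present in 76.9% of the 238 genes at least 2-fold higher and in 79.2% of the 331 genes at least 2-fold lower. Among all 5747 matched genes at that level it was present in 74.6%, and among all 27305 promoters of the table in 44.5%. Genes expressed in these cells carried GC boxes more often than promoters at large, whichever way they moved. By number of boxes, the share of genes at least 2-fold lower was 4.72% with 0 boxes, 7.03% with 3 to 5 and 5.57% with 6 or more, and the share at least 2-fold higher was 3.76%, 4.53% and 5.57% in the same classes. The median log2 difference was 0.02 with 0 boxes and -0.0013 with 6 or more. The letters of a promoter are a description and not a binding site, and these shares were not tested.

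**Figure D3:**
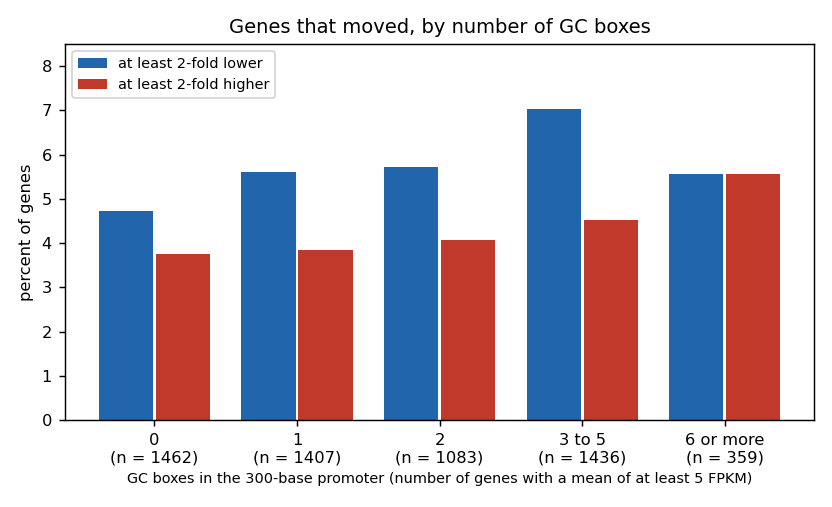
Bars give the percent of genes averaging 5 FPKM or more that were at least 2-fold lower (blue) or at least 2-fold higher (red) than each control, by the number of GC boxes in the 300-base promoter, with the number of genes under each pair. The shares lie between 3.76% and 7.03% in every class.

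Of 31 genes often cited as SP1 targets, 19 were lower (31.1% of all genes tested were) and 5 higher (31.9%) in the double knockdown, with a median log2 difference of -0.50, beside 0.01 over all genes tested. Cyclin D1 (CCND1), the G1 cyclin of CDK4 and CDK6, had 77.5 FPKM in the double knockdown, against 359 and 358 FPKM in the controls (-2.196 ± 0.06, limma adjusted p = 4.53e-13). The growth factor receptor EGFR had 3.34 FPKM in the double knockdown, against 18.8 and 17.4 FPKM in the controls (-2.14 ± 0.10, adjusted p = 8.97e-11). CDKN1A (p21), an inhibitor of cyclin-dependent kinases, had 92.3 FPKM in the double knockdown, against 343 and 329 FPKM in the controls (-1.85 ± 0.06, adjusted p = 2.48e-12). A driver and a brake of the cell cycle thus both fell, each to well below both controls. MAOB, the monoamine oxidase of the outer mitochondrial membrane, moved the other way, with 73.3 FPKM in the double knockdown, against 19.4 and 17.6 FPKM in the controls (1.93 ± 0.08). In the additive fit 10 of these genes passed as lower and 3 as higher. Among 18 tested members of the SP and KLF family itself, 6 fell and 5 rose. KLF2, a zinc finger factor of quiescence, had 24.1 FPKM in the double knockdown, against 6.27 and 6.68 FPKM in the controls (1.75 ± 0.08), and KLF7 had 8.70 FPKM against 4.07 and 3.88 FPKM in the controls. Neither KLF2 (adjusted p = 0.101) nor KLF7 (adjusted p = 0.0759) passed in the additive fit.

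Genes of mitosis were lower together. Of 42, 33 fell and 0 rose, with a median difference of -0.56. The kinesin KIF20A, needed for cytokinesis, had 2.55 FPKM in the double knockdown, against 14.1 and 10.8 FPKM in the controls (-1.91 ± 0.13, limma adjusted p = 1.1e-08). The mitotic kinase PLK1 had 7.48 FPKM in the double knockdown, against 24.4 and 20.03 FPKM in the controls. TOP2A, the topoisomerase that untangles replicated chromosomes, had 12.3 FPKM in the double knockdown, against 32.2 and 26.7 FPKM in the controls. For all 3 control 1 was the higher control, and over the list control 2 minus control 1 had a median of -0.20, beside -0.03 for all genes. No mitosis gene passed in the additive fit, where KIF20A had an adjusted p of 0.0825 and PLK1 of 0.0804. With the SP1 and SP3 siRNAs alone the list medians were -1.09 and -1.08, so the measured medians did not add. The additive fit counts such departures as spread. Each knockdown was 1 library, and whether the effects of the siRNAs themselves add was not tested. Genes of DNA replication were less uniform, with 17 of 41 lower, 5 higher and a median of -0.17, which was -0.10 without control 1. FEN1, the flap endonuclease of lagging strand synthesis, had 5.82 FPKM in the double knockdown, against 23.0 and 23.1 FPKM in the controls (-1.82 ± 0.09), and the helicase subunit MCM2 had 12.7 FPKM against 25.7 and 26.2 FPKM in the controls (-0.97 ± 0.08). Of the 17 falls, only that of ORC2, a subunit of the origin recognition complex, passed in the additive fit (-0.79, adjusted p = 0.0347).

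Among genes that supply deoxynucleotides, 8 of 12 fell and 1 rose, and 0 passed either way in the additive fit. The thymidylate synthase TYMS had 18.2 FPKM in the double knockdown, against 40.8 and 39.7 FPKM in the controls (-1.10), and the ribonucleotide reductase subunit RRM2 had 39.98 FPKM against 66.1 and 64.5 FPKM in the controls (-0.69). There TYMS had an adjusted p of 0.0684 and RRM2 of 0.356. TYMS exons share 967 bases with ENOSF1 on the other strand, and RRM2 exons share 1077 bases with AC007240.1 on the same strand. Cyclins and their kinases did not move as a block, with 11 of 19 lower and 3 higher (4 and 1 in the additive fit). Cyclin E1 (CCNE1), which binds CDK2 late in G1, had 55.8 FPKM in the double knockdown, against 15.4 and 17.1 FPKM in the controls (1.72 ± 0.08, limma adjusted p = 8.57e-11). The D-type cyclin kinase CDK6 had 4.93 FPKM in the double knockdown, against 14.1 and 13.7 FPKM in the controls (-1.33 ± 0.09). The cyclins of G1 therefore split, with CCND1 down and CCNE1 up. Among 7 CDK inhibitors, CDKN1A, CDKN2C (p18, -1.17) and CDKN1B (p27, -0.65, adjusted p in the additive fit 0.0714) fell, and CDKN1C (p57) rose to 68.1 FPKM in the double knockdown, against 35.5 and 36.5 FPKM in the controls (0.90 ± 0.07). CDKN2C reached 1 FPKM only in the controls and entered the test through those values, so its fall adds no support. TFDP1, the dimer partner of E2F factors, rose to 57.1 FPKM in the double knockdown, against 28.0 and 25.5 FPKM in the controls (1.07 ± 0.07), among 13 E2F and retinoblastoma genes of which 2 rose and 5 fell. Of 29 genes of homologous recombination and the Fanconi pathway, 13 fell and 5 rose (median -0.24), and 2 passed as lower and 1 as higher in the additive fit. BARD1, the partner of BRCA1 (-0.95), was among the falls in both.

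Lipid synthesis genes were lower. Of 26 genes of cholesterol synthesis and uptake, 24 fell and 1 rose, with a median difference of -0.59. EBP, a sterol isomerase, had 27.4 FPKM in the double knockdown, against 72.7 and 76.7 FPKM in the controls (-1.41 ± 0.07, limma adjusted p = 2.1e-10). The riser was PMVK, phosphomevalonate kinase, with 15.5 FPKM in the double knockdown, against 5.98 and 4.89 FPKM in the controls (1.36 ± 0.11). The list was thus nearly uniform, but in the additive fit 2 genes passed as lower and 1, PMVK, as higher. Neither count was a larger share than over all genes tested in that fit. EBP did not pass there (adjusted p = 0.0529). Among 15 genes that make fatty acids, 10 fell and 3 rose, with a median of -0.61 (2 lower and 1 higher in the additive fit). ACSS2, which makes acetyl-CoA from acetate, had 25.6 FPKM in the double knockdown, against 64.4 and 60.6 FPKM in the controls (-1.25 ± 0.07), and fatty acid synthase (FASN) had 282 FPKM against 520 and 500 FPKM in the controls (-0.85 ± 0.06). Neither of these passed in the additive fit (adjusted p = 0.0847 and 0.106). ELOVL1, which lengthens very long chain fatty acids, rose to 114 FPKM in the double knockdown, against 65.6 and 62.0 FPKM in the controls (0.83 ± 0.06).

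Genes of glycolysis and of the hypoxia response were mostly lower. In glycolysis and glucose uptake 14 of 23 fell and 4 rose, with a median of -0.29, and in the additive fit 1 passed as lower and 1 as higher. Neither of these additive counts was a larger share than over all genes tested. Beside SLC2A3, the largest falls were in PFKFB4, which makes an activator of glycolysis, with 15.1 FPKM in the double knockdown, against 54.2 and 52.6 FPKM in the controls (-1.75 ± 0.07), and in GAPDH. GAPDH, an enzyme often used as a reference gene, had 4906 FPKM in the double knockdown, against 9759 and 9722 FPKM in the controls (-0.99 ± 0.05, limma adjusted p = 5.74e-10). Neither PFKFB4 nor GAPDH passed in the additive fit (adjusted p = 0.0585 and 0.0521). Of 20 hypoxia response genes outside glycolysis, 13 fell and 3 rose (median -0.30). The collagen lysyl hydroxylase PLOD2 had 16.4 FPKM in the double knockdown, against 58.7 and 61.3 FPKM in the controls (-1.81 ± 0.07), and the lipase inhibitor ANGPTL4 had 139 FPKM against 354 and 370 FPKM in the controls (-1.37 ± 0.06). Both passed in the additive fit, with 6 genes of the list lower and 0 higher there.

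Mitochondrial respiration genes moved the other way, by small amounts. Of 38 complex I genes, 21 rose and 7 fell (median 0.20), and of 36 genes of complexes II to V, 21 rose and 3 fell (median 0.19). The rises were under 2-fold throughout. NDUFB5, an accessory subunit of complex I, had 58.6 FPKM in the double knockdown, against 31.9 and 29.1 FPKM in the controls (0.92 ± 0.07, limma adjusted p = 3.38e-08), and SDHB, the iron-sulfur subunit of complex II, had 114 FPKM against 67.5 and 67.9 FPKM in the controls (0.75 ± 0.06). CYCS, which encodes cytochrome c, had 56.1 FPKM in the double knockdown, against 34.1 and 33.8 FPKM in the controls (0.71 ± 0.07). These 3 genes were above both controls and passed in the additive fit, as did 6 risers of complex I and 6 of complexes II to V in all. NDUFB2, also of complex I, went against its list, with 19.5 FPKM in the double knockdown, against 40.8 and 44.0 FPKM in the controls (-1.08 ± 0.08, adjusted p in the additive fit 0.0886), and its exons share 1239 bases with BRAF on the other strand. Of 24 genes of mitochondrial import and folding, 11 rose and 4 fell, from TOMM22 at the top to the small import subunit TOMM5 at the bottom, with 20.96 FPKM in the double knockdown, against 64.3 and 66.2 FPKM in the controls (-1.59 ± 0.07). The import genes thus held both the largest rise and the largest fall of the mitochondrial lists.

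Inflammatory and interferon genes were lower. Of 27 NF-kB target and cytokine genes, 22 fell and 2 rose, with a median of -0.60. S100A8, S100A9, SAA1 and CCL20, given above, led the falls, and 12 genes passed as lower in the additive fit. Of the 27, 3 reached 1 FPKM only in the controls, S100A8 among them. These entered the test through their high control values, so their falls add no support. Of 22 interferon-stimulated genes, 18 fell and 2 rose, with a median of -0.78, and 9 passed as lower in the additive fit. Of the 22, 1 reached 1 FPKM only in the controls. Over this list control 2 minus control 1 had a median of -0.18. EIF2AK2, which encodes the double-stranded RNA sensor PKR, had 1.57 FPKM in the double knockdown, against 6.79 and 5.82 FPKM in the controls (-1.50 ± 0.12, limma adjusted p = 5.25e-08). IFI6 had 7.23 FPKM in the double knockdown, against 20.5 and 22.2 FPKM in the controls (-1.44 ± 0.09), and BST2 (tetherin), which holds budding virions at the cell surface, had 0.669 FPKM against 3.63 and 2.78 FPKM in the controls (-1.33 ± 0.14). The double knockdown lay below the lower control for each. The blood cell markers described above moved the same way, and their part in these lists was not tested. Class I antigen presentation genes showed no such shift, with 5 of 13 lower, 4 higher and a median of -0.03. PSMB9, an immunoproteasome subunit, fell to 6.11 FPKM in the double knockdown, against 11.6 FPKM in each control (-0.83 ± 0.09), and TAPBP, the peptide-loading chaperone tapasin, to 30.8 FPKM against 54.1 and 54.0 FPKM in the controls (-0.79 ± 0.07).

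Epithelial genes held some of the deepest falls without moving as a list, with 11 of 24 lower and 7 higher. KRT18, a keratin of simple epithelia, had 154 FPKM in the double knockdown, against 750 and 740 FPKM in the controls (-2.27 ± 0.05, limma adjusted p = 3.1e-13). Its usual filament partner KRT8 rose slightly, with 2253 FPKM in the double knockdown, against 1749 and 1799 FPKM in the controls (0.34 ± 0.05). CLDN4, a tight junction claudin, had 181 FPKM in the double knockdown, against 630 and 625 FPKM in the controls (-1.79 ± 0.05), and KRT80 had 2.76 FPKM against 14.1 and 14.2 FPKM in the controls (-2.01 ± 0.10). Among 25 mesenchymal and matrix genes, 11 fell and 4 rose. The matrix glycoprotein thrombospondin 1 (THBS1) had 4.16 FPKM in the double knockdown, against 22.6 and 26.2 FPKM in the controls (-2.29 ± 0.10), and PLAU, the urokinase that activates plasminogen, had 23.0 FPKM against 82.9 and 87.9 FPKM in the controls (-1.85 ± 0.07). TIMP1, an inhibitor of matrix metalloproteinases, rose to 233 FPKM in the double knockdown, against 66.1 and 67.5 FPKM in the controls (1.79 ± 0.06, adjusted p = 3.76e-12). A protease activator therefore fell while a protease inhibitor rose. PLAU exons share 771 bases with C10orf55 on the other strand.

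Of 11 integrins tested, 7 fell and 2 rose (median -0.50), and 3 and 2 did in the additive fit. Of the 11, 1 (ITGB2) reached 1 FPKM only in the controls and 1 only in knockdown libraries. Each of these entered the test through its high values. ITGA2, the collagen receptor subunit, had 15.2 FPKM in the double knockdown, against 38.3 and 37.0 FPKM in the controls (-1.26 ± 0.07, limma adjusted p = 1.67e-09), and ITGB5, a partner of ITGAV in vitronectin binding, had 9.09 FPKM against 25.9 and 25.4 FPKM in the controls (-1.40 ± 0.08). ITGB2, the leukocyte integrin, had 3 reads in the double knockdown, against 206 over the controls, a ratio of 31.9 (10.8 to 156, adjusted p in the additive fit 0.0578), and belongs with the blood cell genes above. Of 14 YAP and TEAD target genes, 9 fell and 2 rose (median -0.38; 4 and 0 in the additive fit). AMOTL2, a feedback regulator of YAP, had 7.73 FPKM in the double knockdown, against 29.9 and 28.2 FPKM in the controls (-1.78 ± 0.08), and the receptor kinase AXL had 6.23 FPKM against 24.2 and 22.9 FPKM in the controls (-1.76 ± 0.09). Both AMOTL2 and AXL passed in the additive fit.

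Growth factor signalling genes moved both ways. Of 8 ERBB receptor and ligand genes tested, 4 rose and 1 fell. AREG, the ligand amphiregulin, had 709 FPKM in the double knockdown, against 237 FPKM in each control (1.58 ± 0.05, limma adjusted p = 4.9e-12), and EREG, the ligand epiregulin, had 59.5 FPKM against 35.3 and 33.0 FPKM in the controls (0.78 ± 0.07). ERRFI1, a feedback inhibitor of EGFR, had 675 FPKM in the double knockdown, against 402 and 379 FPKM in the controls (0.79 ± 0.06). The receptor EGFR was the fall, as given above. In the additive fit 2 of these genes passed as higher and 1 as lower, and EREG did not pass (adjusted p = 0.177). Of 25 immediate early genes, 12 rose and 7 fell (median 0.22, beside 0.10 between the controls; 6 and 1 in the additive fit). EGR1 had 91.8 FPKM in the double knockdown, against 23.4 and 30.0 FPKM in the controls (1.76 ± 0.10), and FOS had 38.9 FPKM against 7.48 and 10.1 FPKM in the controls. SRF, the factor that drives many of these genes, fell to 17.2 FPKM in the double knockdown, against 41.7 and 45.4 FPKM in the controls (-1.29 ± 0.08, adjusted p in the additive fit 0.0667). Of 16 ERK feedback and output genes, 8 fell and 4 rose, CCND1 and PHLDA1 (-1.33) leading the falls. Of 17 WNT feedback and target genes, 7 rose and 7 fell. MYC had 47.8 FPKM in the double knockdown, against 91.9 and 85.8 FPKM in the controls (-0.88 ± 0.06), and AXIN1, a scaffold of the beta-catenin destruction complex, had 8.51 FPKM against 3.81 and 3.56 FPKM in the controls (1.02 ± 0.10).

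Granin and secretory granule genes included some of the largest rises. Of 16 in the list, 9 reached 1 FPKM and were tested, of which 6 rose and 0 fell, with a median of 1.04. Of the 9, 3 reached 1 FPKM only in knockdown libraries, SYP among them, and entered the test through their high values. The count thus describes the 9 and not the list. After SCG2 and VGF, SYP, the synaptic vesicle protein synaptophysin, had 7.31 FPKM in the double knockdown, against 0.917 and 0.827 FPKM in the controls (2.15 ± 0.12, limma adjusted p = 1.29e-09). SNCG, which encodes gamma-synuclein and was placed in this list, had 68.9 FPKM in the double knockdown, against 16.2 and 11.0 FPKM in the controls. All 6 also passed in the additive fit, which used the same filtered genes and so does not lift this limit.

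Most cytosolic chaperone genes and 17 of 31 proteasome genes rose. Of 18 cytosolic heat shock chaperones, 15 rose and 3 fell, with a median of 0.50, and in the additive fit 7 passed as higher and 3 as lower. HSPA1B, an inducible HSP70, had 157 FPKM in the double knockdown, against 41.6 and 59.9 FPKM in the controls (1.63 ± 0.13, limma adjusted p = 4.61e-08). It has a near-identical copy, so its reads are uncertain. DNAJB1, a cochaperone of HSP70, had 199 FPKM in the double knockdown, against 68.2 and 85.1 FPKM in the controls (1.38 ± 0.09). Control 2 was the higher control for both, below the double knockdown. HSPB8, a small heat shock protein, fell to 2.995 FPKM in the double knockdown, against 9.52 and 7.63 FPKM in the controls (-1.25 ± 0.12). Of the 31 proteasome subunits 3 fell and 11 did not pass (median 0.21), and in the additive fit 2 passed as higher and 0 as lower. The ATPase subunit PSMC3 had 46.9 FPKM in the double knockdown, against 16.5 and 14.4 FPKM in the controls (1.54 ± 0.08), whereas the lid subunit PSMD3 had 46.5 FPKM against 73.4 and 74.7 FPKM in the controls (-0.66 ± 0.06, adjusted p in the additive fit 0.0812). Of 28 ATF4 and unfolded protein response genes, 7 rose and 9 fell; ASNS, asparagine synthetase, had 38.1 FPKM in the double knockdown, against 14.9 and 13.2 FPKM in the controls (1.38 ± 0.08), and the amino acid transporter SLC7A5 had 33.6 FPKM against 60.5 and 66.6 FPKM in the controls (-0.90 ± 0.07). Of 33 autophagy and lysosome genes, 11 rose and 10 fell, near the shares of all genes tested (31.9% and 31.1%). Among them were BECN1, a subunit of the lipid kinase complex that starts autophagosomes (0.93), and the phosphoinositide-binding WIPI1 (-0.95).

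Antioxidant, p53 and cell death genes moved gene by gene. Of 22 NRF2 and antioxidant genes, 6 rose and 9 fell. HMOX1, heme oxygenase, had 5.10 FPKM in the double knockdown, against 18.1 and 19.5 FPKM in the controls (-1.70 ± 0.09, limma adjusted p = 4.49e-10). NQO1, a quinone reductase, had 8.37 FPKM in the double knockdown, against 28.9 and 28.3 FPKM in the controls (-1.66 ± 0.08), and the thioredoxin reductase TXNRD1 had 52.9 FPKM against 133 and 132 FPKM in the controls (-1.31 ± 0.06). All 3 are classic NRF2 targets and stood at well below both controls, while PRDX4 of the same list was among the steepest rises. Of 26 p53 target genes, 12 rose and 9 fell (median 0.05). SFN, the 14-3-3 protein sigma, had 771 FPKM in the double knockdown, against 288 and 284 FPKM in the controls (1.43 ± 0.05), and PMAIP1 (NOXA), a BH3-only death protein, had 95.7 FPKM against 41.9 and 44.8 FPKM in the controls (1.12 ± 0.07), whereas CDKN1A of the same list fell. Of 15 BCL2 family genes, 3 rose and 8 fell, among them the BH3-only genes BMF (-0.98) and BID (-0.84).

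Most of the histone genes tested rose, and ribosomal protein genes had a median near 0. Of 30 canonical histone genes 16 reached 1 FPKM and were tested, and 12 rose and 2 fell (median 0.75; 6 and 0 in the additive fit). Of the 16, 2 reached 1 FPKM only in knockdown libraries, so the count describes the genes tested and not the list. Control 2 exceeded control 1 in the same genes by a median of 0.31. HIST1H2BD had 67.0 FPKM in the double knockdown, against 22.6 and 31.1 FPKM in the controls (1.31 ± 0.12, limma adjusted p = 2.08e-07). Histone genes have near-identical copies, most of their transcripts lack a poly(A) tail, and the sources used here do not say whether polyadenylated RNA was selected. Of 65 cytosolic ribosomal protein genes, 11 rose and 11 fell (median -0.02). RPL11 had 1146 FPKM in the double knockdown, against 643 and 674 FPKM in the controls (0.80 ± 0.05), and RPL21, which has many near-identical copies, had 995 FPKM against 1583 and 1587 FPKM in the controls (-0.67 ± 0.05). Neither passed in the additive fit (adjusted p = 0.0514 and 0.0688). Of 26 SR and hnRNP splicing factors, 10 rose and 7 fell; HNRNPK had 80.4 FPKM in the double knockdown, against 174 and 166 FPKM in the controls (-1.07 ± 0.06, adjusted p in the additive fit 0.0625). Of 18 genes in common use as references, 7 fell and 5 rose, so several were not level: TUBA1B had 91.0 FPKM in the double knockdown, against 318 and 293 FPKM in the controls (-1.74 ± 0.06), YWHAZ had 148 FPKM against 329 and 325 FPKM in the controls (-1.13 ± 0.05), and TFRC had 75.2 FPKM against 42.3 and 46.2 FPKM in the controls (0.75 ± 0.07, adjusted p in the additive fit 0.0734). The plot of all lists places these medians beside that of all genes.

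**Figure D4:**
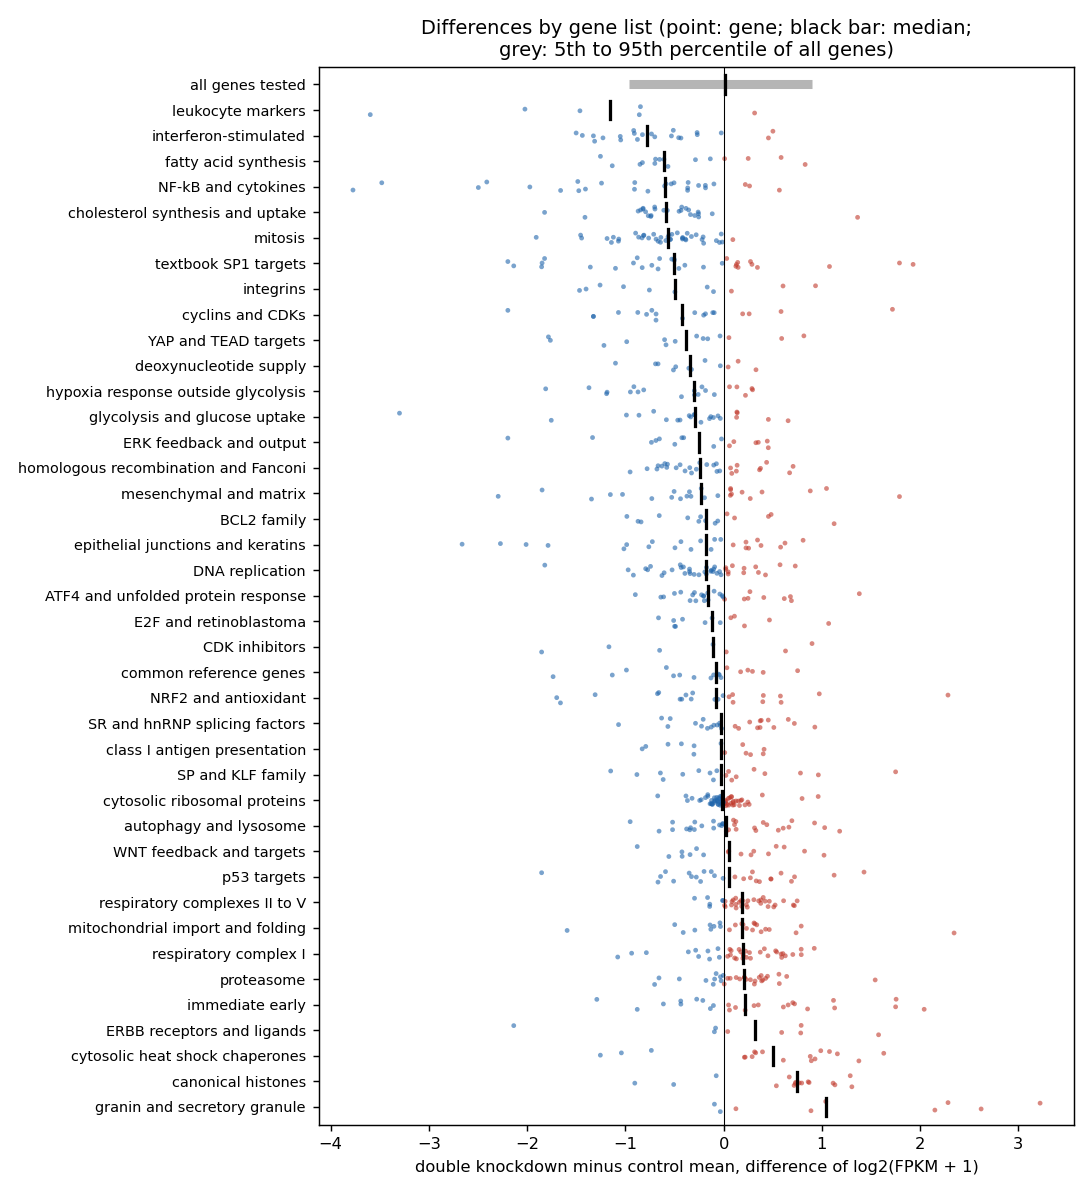
Each row is a gene list with at least 5 tested members, each point a gene, and the horizontal axis the double knockdown minus the control mean as a difference of log2(FPKM + 1); the black bar is the median, and the grey bar in the top row spans the 5th to 95th percentile of all genes tested (-0.97 to 0.90). Medians run from -1.16 for leukocyte markers to 1.04 for granin and secretory granule genes. Both extremes include genes that entered through their high values. Of the 6 leukocyte markers 5 reached 1 FPKM only in the controls, and of the 9 granin genes 3 only in knockdown libraries.

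The double knockdown was then set directly against each single knockdown, a comparison that does not use the controls for its difference. Against the SP1 siRNA library, 5566 genes passed the limma threshold (47.5%), 2467 as higher (21%) and 3099 as lower (26.4%); against the SP3 siRNA library, 3871 passed (33%), 2104 as higher (17.9%) and 1767 as lower (15.1%). These splits depend on scaling: with median-ratio scaling they were 3189 higher and 2421 lower against the SP1 siRNA, and 1684 higher and 2345 lower against the SP3 siRNA. Of the 294 genes at least 2-fold higher than each control, 163 were also past the threshold and higher than with the SP1 siRNA, 133 higher than with the SP3 siRNA, and 59 higher than with either. Of the 415 at least 2-fold lower, 224 were lower than with the SP1 siRNA, 224 lower than with the SP3 siRNA, and 96 lower than with either. In the other direction, 25 and 18 of the 294 passed as lower than with the SP1 and SP3 siRNAs, and 55 and 36 of the 415 as higher. These genes were chosen by values of the same double knockdown library, which favours the first direction, so the counts are no support for it. No share over all genes was taken beside the 59 and 96.

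For some genes the double knockdown went past both single knockdowns. CDKN1A was lower with both siRNAs than with either alone, at 92.3 FPKM in the double knockdown, against 200 FPKM with the SP1 siRNA and 198 FPKM with the SP3 siRNA (double minus single -1.11 and -1.09, limma adjusted p = 8.57e-09 and 4.16e-08). KRT18 showed the same, with 154 FPKM in the double knockdown, against 408 and 284 FPKM in the single knockdowns (-1.41 and -0.88). TIMP1 was higher than with either, at 233 FPKM in the double knockdown, against 88.2 and 152 FPKM (1.39 and 0.61). Other genes stood much nearer to one single knockdown than to the other. SLC2A3 had 5.92 FPKM in the double knockdown, against 5.03 FPKM with the SP1 siRNA and 41.1 FPKM with the SP3 siRNA (0.20, adjusted p = 0.0911, and -2.61, adjusted p = 1.27e-10), and CCND1 had 77.5 FPKM against 65.8 and 280 FPKM (0.23, adjusted p = 0.00797, and -1.84, adjusted p = 1.27e-10). VGF lay on the other side, with 221 FPKM in the double knockdown, against 20.9 FPKM with the SP1 siRNA and 241 FPKM with the SP3 siRNA (3.34, adjusted p = 2e-13, and -0.13, adjusted p = 0.205). A p above the threshold does not show that levels were equal: the 95% interval of the difference was 0.0011 to 0.40, not adjusted for the number of genes, for SLC2A3 against the SP1 siRNA and -0.28 to 0.03 for VGF against the SP3 siRNA.

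For MYC, AKAP12 and CDKN1C the single knockdown libraries lay on opposite sides of the controls, and the double knockdown lay between them. MYC had 47.8 FPKM in the double knockdown, against 136 FPKM with the SP1 siRNA and 44.1 FPKM with the SP3 siRNA (-1.48, limma adjusted p = 1.72e-09, and 0.11, adjusted p = 0.258). AKAP12, a scaffold for kinase A, had 132 FPKM in the double knockdown, against 530 and 79.2 FPKM (-1.99 and 0.73), and CDKN1C had 68.1 FPKM against 19.9 and 107 FPKM (1.72 and -0.65). TOP1MT, the mitochondrial topoisomerase, held the largest fall against the SP1 siRNA library, with 7.90 FPKM in the double knockdown, against 41.1 FPKM there (-2.24). The largest rise against the SP3 siRNA library was listed for SLX1B, with 12 FPKM in the double knockdown, against 0.803 FPKM there (2.85), but SLX1B has a near-identical copy, SLX1A, and its reads are uncertain. FAM162A, a hypoxia-induced mitochondrial protein, had 280 FPKM in the double knockdown, against 112 FPKM with the SP3 siRNA (1.31).

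Mitosis genes were nearer to control in the double knockdown than in either single knockdown. The median difference from control was -0.56 with both siRNAs, -1.09 with the SP1 siRNA and -1.08 with the SP3 siRNA, all against the same 2 controls. Tested directly, and beside the 21% and 17.9% of all genes given above, 26 of 42 mitosis genes were higher in the double knockdown than with the SP1 siRNA and 0 lower, and 29 were higher than with the SP3 siRNA and 1 lower; with median-ratio scaling the counts were 31 and 0, and 30 and 1. TOP2A had 12.3 FPKM in the double knockdown, against 10.3 FPKM with the SP1 siRNA (0.23, limma adjusted p = 0.111) and 5.64 FPKM with the SP3 siRNA (1.004, adjusted p = 1.6e-05), and RRM2 of the deoxynucleotide list had 39.98 FPKM against 18.0 and 17.2 FPKM (1.11 and 1.17). DNA replication genes leaned the same way, with 16 of 41 higher and 4 lower than with the SP1 siRNA, and 26 higher and 2 lower than with the SP3 siRNA. Respiratory genes matched the SP3 siRNA library more than the SP1 siRNA library. Of 38 complex I genes, 29 were higher and 1 lower than with the SP1 siRNA, whereas 4 were higher and 3 lower than with the SP3 siRNA. Proteasome genes did likewise against the SP1 siRNA, with 24 of 31 higher and 0 lower, but 10 were lower and 1 higher than with the SP3 siRNA. Of 16 histone genes, 12 were higher and 1 lower than with the SP1 siRNA, and 8 were lower and 0 higher than with the SP3 siRNA. Of 26 cholesterol genes, 5 were higher and 8 lower than with the SP1 siRNA, and 15 were higher and 1 lower than with the SP3 siRNA; with median-ratio scaling the first pair was 7 and 6. The plot of list medians sets the 3 knockdowns side by side.

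**Figure D5:**
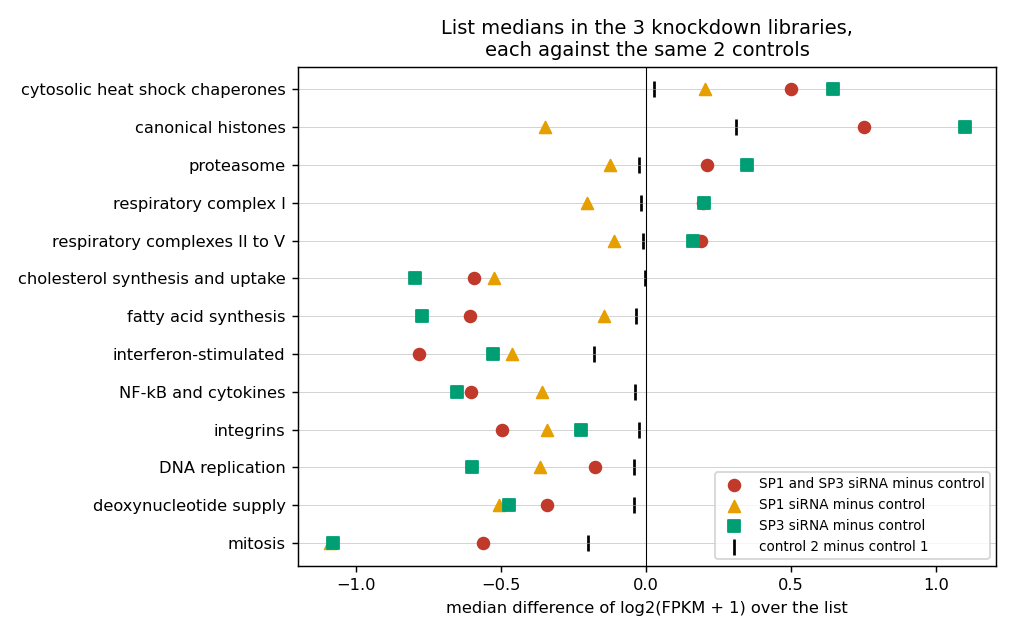
Points give the median difference of log2(FPKM + 1) from the control mean over each list for the double knockdown (red circles), the SP1 siRNA (orange triangles) and the SP3 siRNA (green squares), and black ticks the median of control 2 minus control 1. The knockdowns share the same 2 controls; for mitosis genes the double knockdown (-0.56) lies nearer to 0 than both single knockdowns (-1.09 and -1.08), and for histone genes it lies between the SP1 siRNA (-0.35) and the SP3 siRNA (1.10).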

How the data were processed

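For each library the authors deposited gene symbols with FPKM values. The submitters' processing notes list HISAT2 2.0.5, HTSeq 0.9.1, Trimmomatic 0.36 and Cufflinks 2.2.1 without saying what each did. The sources used here do not give build, annotation or strand. FPKM is not a count, so limma 3.58.1 (R 4.3.3, empirical Bayes with trend) was run on log2(FPKM + 1) over all 5 libraries with 1 mean per group. A total of 11728 genes reached 1 FPKM in some library and were tested, with Benjamini-Hochberg adjustment and a threshold of 0.05. In some lists members reached 1 FPKM only in the controls or only in knockdown libraries, and entered the test through those high values. The 2 controls supplied the 1 residual degree of freedom, and the prior added 13.98, so the p-values reflect the spread of these samples alone, which can be technical. The script was checked on simulated data.

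Whole reads were recovered from the FPKM steps for 17125 of 17125 genes above 0 (100%, tolerance 0.02 reads), against 2.2% of 500 genes after random jitter; limma voom on them called 7371 genes. Recovered reads are lower limits, and their intervals and floors cover counting error only. The members and lists were chosen with earlier results of these data known. Named genes were SP1, SP3, the 12 largest rises and falls (called, mean of at least 5 FPKM, 2-fold from each control), up to 4 called members per list, and the 3 extremes each way against each single knockdown; KRT8 and the blood cell genes were chosen after their values were seen. Not all of the genes so chosen are reported here. Of the genes tested, 9273 matched a RefSeq promoter by symbol. Alternatives were another pseudocount (0.1), scaling, filter, samples, trend and model.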

Additional observations from a re-analysis of the deposited data

How the results depend on the processing

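No paired analysis was possible because the double knockdown library carries no replicate number and stands alone in its group. The 7387 calls against control became 3157 with no filter on low values and 1973 in the additive fit, and 153 to 486 in the additive fit without control 2 or control 1. The fit with no filter tested more genes, and the fits without a control used fewer samples. The additive fit used the same genes and samples but counted departures from the sum of the single effects as spread. Its prior added 3.30 degrees of freedom, where that of the main fit added 13.98. A gene whose siRNA effects do not add can lose its call there without lying closer to the controls. How much each difference lowered its count was not tested. With no filter 0 genes passed limma's adjusted threshold against the SP1 siRNA library and 0 against the SP3 siRNA library, where 6063 and 4443 had an unadjusted p under 0.05 and voom called 5558 and 4103. The 709 genes at least 2-fold from each control became 1343 with a mean of at least 1 FPKM, 434 with a mean of at least 10 FPKM, 1953 at 1.5-fold and 179 at 3-fold. Between 809 and 816 passed with 1 control left out. Of 173 named genes, all kept direction and call with a pseudocount of 0.1, median-ratio scaling, no trend, the 3 libraries alone and voom, which was chosen after seeing the data. The additive fit kept 111 of the 173 calls, 72 without control 1 and 46 without control 2, and the fit with no filter kept 130. List medians that changed sign were near 0 except in leukocyte markers: with a mean of at least 5 FPKM the SP and KLF family stood at 0.0663, E2F and retinoblastoma genes at 0.0473 and leukocyte markers at 0.315, and with no filter the SP and KLF family stood at 0.00607 and WNT genes at -0.0121. List medians also changed in size. Of 40, 22 moved without a change of sign with a mean of at least 5 FPKM. With median-ratio scaling 16 moved, with a pseudocount of 0.1 15, and with no filter 12. Without control 1 and without control 2, 20 and 21 moved, and the mitosis median was -0.46 and -0.68. Depth limits genes with few reads, such as S100A9 with 0 reads in the double knockdown.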
